A study of Caenorhabditis elegans with 12 samples.

Results

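The genes described here are 136 collagen genes of *Caenorhabditis elegans*, taken by symbol as cuticle collagens: 125 genes with a *col-* symbol and 11 genes named for the body shape of their mutants, *sqt-1*, *sqt-2*, *sqt-3*, *rol-6*, *rol-8*, *lon-3*, *dpy-4*, *dpy-5*, *dpy-13*, *dpy-14* and *dpy-17*. They were chosen by symbol from a count table of 20212 genes, leaving out *col-7*, *col-19* and *col-62*, and were kept where at least 10 reads were counted in at least 3 of the 12 libraries. Of 165 genes that matched by symbol, 136 passed and 29 did not. The highest count of any left-out gene in any library was 15, and *col-2* and *col-40*, collagen genes known from dauer larvae, were among them with at most 8 reads. All 136 kept genes were tested among 15048 genes. No sequence is printed, because no sequence table of these genes was used here.

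RNA came from whole animals of 2 genotypes, the wild type N2 and the *mir-71(n4115)* deletion strain MT12993, each kept on plates treated with water or with sodium azide, an inhibitor of mitochondrial complex IV. The 4 groups held 3 libraries each. Animals were synchronized by egg pulse and collected as L4 larvae, the last larval stage, and the sources used here name no azide dose for these libraries. The deletion is not limited to any tissue, and *mir-71* itself was not analysed here.

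The cuticle is the collagen-rich coat that covers the worm. Epidermal cells secrete it afresh at each molt, and collagen genes are known to be switched on and off in waves within each molting cycle, with further differences between larval stages and the adult. A collagen chain is hydroxylated on prolines and folded in the endoplasmic reticulum, joins other chains in a triple helix, is cut by proteases on its way out, and is cross-linked in the coat. Loss or change of single collagens can make the animal dumpy (short and fat, *dpy*), squat (*sqt*), long (*lon*) or rolling around its own axis (*rol*), which is how the 11 body-shape genes got their names. Most *col-* genes have no such visible mutant.

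Total counts lay between 16828108 and 23937993 a library. Levels of a gene across libraries are given as CPM, counts per 1000000 counts of the library after scaling by TMM factors. Levels of different genes are compared only by the deposited FPKM, which divides by gene length. The members spanned a wide range: 10 had a mean FPKM below 1 over the 12 libraries, 40 lay from 1 to 100, 63 from 100 to 1000 and 23 above 1000. The 5 highest by mean FPKM were *col-73* at 3895, *col-138* at 2747, *dpy-13* at 2739, *dpy-5* at 2565 and *dpy-4* at 2493. These 5 genes made up 26.9% of the members' summed FPKM in wild type on water and 5.61% in wild type on azide. By mean FPKM within each group, *col-73* ranked first on water in both genotypes and in the deletion on azide, while *col-124* ranked first in wild type on azide, at 5131.

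The share of all reads that fell on the 136 genes was 7.72%, 7.01% and 7.38% in wild type on water and 6.73%, 6.64% and 6.41% in wild type on azide. The deletion libraries had 8.48%, 7.84% and 6.56% on water and 3.30%, 4.51% and 4.43% on azide. The 3 deletion libraries on azide lay below all 9 others. The means were 7.37% ± 0.353 (SD, n = 3), 6.59% ± 0.167, 7.63% ± 0.978 and 4.08% ± 0.676 in that order. With 3 libraries a group the exact permutation test cannot go below p = 0.1, which it reached for the deletion against wild type on azide (-2.52 percentage points), for azide in wild type (-0.772) and for azide in the deletion (-3.55), with an adjusted p of 0.133 over the 4 comparisons. On water the difference was 0.26 percentage points (exact permutation p = 0.7), and without single libraries it lay between -0.168 and 0.793, so that its sign was not fixed. In bulk samples such as these, fewer epidermal cells and less collagen RNA per cell cannot be told apart.

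**Figure D1:**
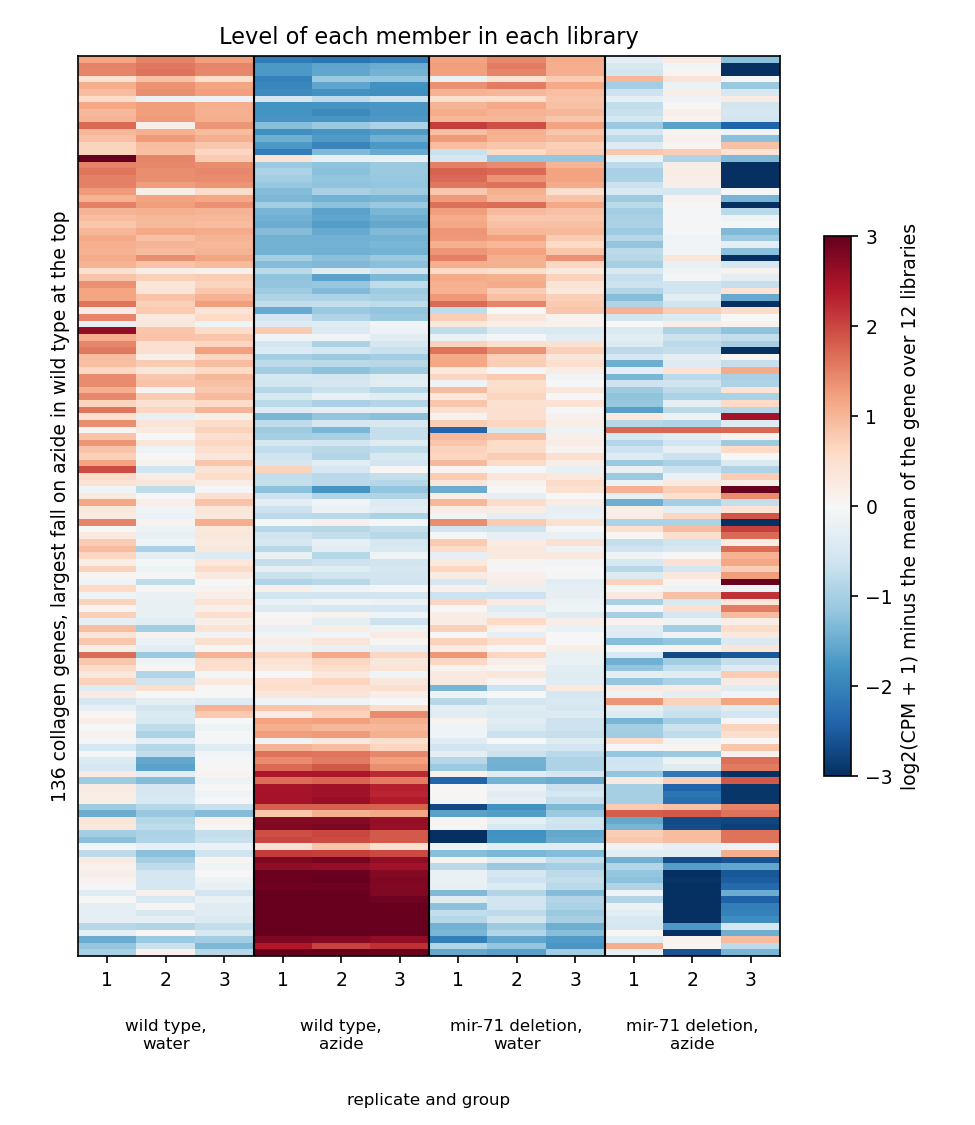
Level of each of the 136 collagen genes (rows) in each of the 12 libraries (columns, replicates 1 to 3 of each group), as log2(CPM + 1) minus the mean of that gene over all libraries. Genes are ordered by the azide effect in wild type: the upper part is blue in wild type on azide, the lower part is red there, and replicate 3 of the deletion on azide differs from replicates 1 and 2 in several bands.

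Libraries of the deletion on azide differed among themselves more than those of any other group. The fit shares its estimate of the spread over the 4 groups, so this bears on every comparison, also on those that do not use the deletion on azide. The coefficient of variation over 3 libraries had a median over members of 51.5% in that group, of 7.17% in wild type on azide, and of 21.4% and 20.2% on water in wild type and deletion, counting in each group the members at 5 CPM or more on average. Replicate 3 had the most members far from both partner libraries. Of 120 members with a group mean of at least 5 CPM, 13 were more than 3-fold below both partner libraries there and 6 were more than 3-fold above both. In the 9 libraries of the other groups, at most 2 members a library lay so far out in either direction. Among the 13, *col-138* was at 66.4 CPM against 756 and 1678, *col-63* at 25.1 against 431 and 990, and *col-175* at 36.4 against 522 and 914. Among the 6, *col-41* was at 995 CPM against 101 and 80.8, and *col-90* at 928 against 205 and 147. Replicate 1 had 5 members more than 3-fold above both partners, and replicate 2 had 6 more than 3-fold below, with *col-143* at 0.308 CPM against 56.4 and 18.8. By another measure replicate 1 was furthest out. Its median absolute deviation from the group mean over members was 0.499 on the log2 scale. That of replicate 3 was 0.464 and that of replicate 2 was 0.284, so replicate 3 is not the only library that differs. The counts of calls that rest on the deletion on azide are given with and without replicate 3, as are the described calls that were lost without it. Replicate 3 was picked out by the values of these same members, so calls made without it are descriptions and not independent tests. Ranges of the counts over leaving out each library in turn are given further below.

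**Figure D2:**
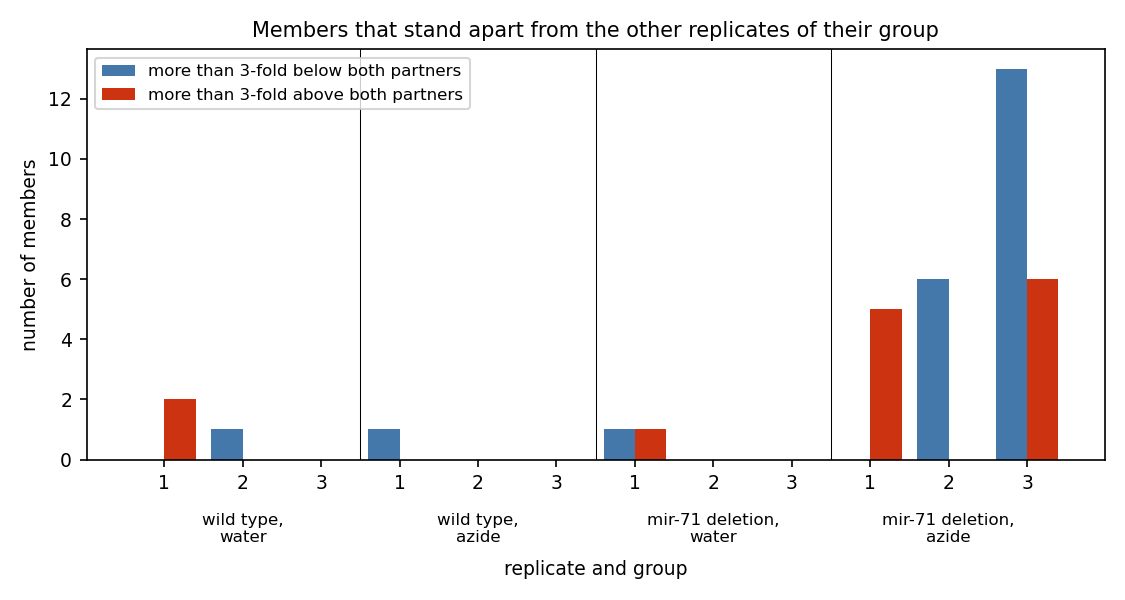
Number of members (of 120 whose mean reached 5 CPM in at least 1 group) that lay more than 3-fold below (blue) or above (red) both other replicates of the same group, for each of the 12 libraries. Replicate 3 of the deletion on azide has 13 below and 6 above, the highest counts in each direction.

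On water the genotypes differed in few of the 136 genes. By edgeR's quasi-likelihood test with Benjamini-Hochberg adjustment at 0.05, used for every call below, 0 members were higher and 3 were lower in the deletion, or 2.21% against 1.5% of all genes tested, of which 0.744% were higher and 0.758% lower. At an unadjusted p under 0.05 there were 14 members in either direction, 10.3% against 14.2% of all genes, and DESeq2 also called 0 members higher, against 2.16% of its genes. The median log2 fold change was -0.19 over the members and -0.00 over all genes.

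*col-132* was measured on water at 21.9, 6.45 and 3.60 CPM in wild type and at 0.893, 0.199 and 0.209 CPM in the deletion. The groups did not overlap, and replicate 1 of the wild type was far above its partners. The log2 fold change was -4.59 ± 0.94 (SE; edgeR adjusted p = 0.0425), and without that replicate it was -3.52 (edgeR adjusted p = 0.0849). *col-153* was at 72.2, 49.0 and 49.9 CPM in wild type and at 24.2, 38.6 and 26.4 CPM in the deletion, again with no overlap, 1.92-fold lower in the deletion (log2 fold change -0.94 ± 0.19, edgeR adjusted p = 0.0275). The last of the 3 was *col-43*, which lay below 5 CPM in every group and was named after its values were seen: 3.65, 2.93 and 2.84 CPM in wild type against 0.893, 1.12 and 0.732 CPM in the deletion (edgeR adjusted p = 0.02). These calls changed with single libraries: without replicate 1 of the wild type on water, or without replicate 1 or replicate 3 of the deletion on water, 0 members were called, and without replicate 3 of the wild type on water 1 was called. DESeq2 called 10 members lower, against 1.89% of its genes.

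Azide in wild type changed 75% of the members, against 54.6% of all genes. Of the 136, 67 fell (49.3%, against 27.1% of all genes that fell) and 35 rose (25.7%, against 27.5%). The median log2 fold change was -1.04 over the members and -0.05 over all genes. Calls that rose lay between 1.23 and 4.21 on the log2 scale and calls that fell between -0.81 and -3.46.

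The 9 abundant body-shape genes and *col-73* were among those that fell. *sqt-3*, a collagen needed in embryos and larvae for an elongated body, was at 2693, 3271 and 2846 CPM in wild type on water and at 397, 366 and 405 CPM on azide. All azide libraries lay far below all water libraries, a 7.54-fold fall (log2 fold change -2.91 ± 0.19, edgeR adjusted p = 1.96e-07). *col-73*, the highest member by FPKM, went from 5324, 5522 and 5332 CPM to 1005, 864 and 1011 CPM, again without overlap (log2 fold change -2.49 ± 0.22, edgeR adjusted p = 2.32e-06). The 5 largest falls among members with at least 5 CPM were *lon-3* (-3.46), *col-79* (-3.13), *col-110* (-3.11), *col-47* (-3.10) and *col-182* (-3.05).

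The genes that rose in wild type started from different levels on water. *col-80* went from 167, 163 and 183 CPM on water to 2711, 2651 and 2401 CPM on azide, a 15.1-fold rise with no overlap (log2 fold change 3.92 ± 0.28, edgeR adjusted p = 9.67e-07). *col-142* went from 61.8, 81.2 and 85.0 CPM to 1223, 1201 and 1117 CPM (log2 fold change 3.96 ± 0.29, edgeR adjusted p = 1.77e-06). Both genes were low in every water library and high in every azide library. The other large rises were *col-95* (4.21), *col-135* (4.03) and *col-143* (3.94), of which *col-135* was at most at 23.6 CPM in any library. *col-8* rose from 75.2, 96.1 and 69.9 CPM to 993, 1049 and 850 CPM (log2 fold change 3.58 ± 0.87, edgeR adjusted p = 0.00645). The members with the highest mean FPKM in wild type on azide after *col-124* were *col-140* at 3929, *col-122* at 3374 and *col-129* at 3336, and all 4 were among the 35 that rose.

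On azide in the deletion 53 members fell (39%, against 11.6% of all genes that fell) and 16 rose (11.8%, against 12.3%), together 50.7% against 23.9% of all genes. Without replicate 3 of the deletion on azide, 72 fell, against 14.8% of all genes, and 15 rose, against 15.7%. The counts of the 2 genotypes were not tested against each other. The median log2 fold change was -0.78 over the members and 0.03 over all genes. The 5 largest falls with at least 5 CPM in a group were *col-152* (-4.23), *col-120* (-2.63), *col-60* (-2.55), *col-88* (-2.35) and *col-182* (-2.09).

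*col-152* went from 27.1, 24.5 and 14.4 CPM on water to 2.05, 1.19 and 0.256 CPM on azide in the deletion, 18.8-fold lower with no overlap (edgeR adjusted p = 0.000591; the log2 fold change was -3.80 when replicate 3 on azide was left out). *col-120*, *col-60* and *col-88* each had replicate 3 far below its partners: *col-60* went from 546, 451 and 290 CPM to 102, 107 and 10.9 CPM. All 3 azide libraries lay below the water libraries for that gene (edgeR adjusted p = 0.0258), and without replicate 3 its log2 fold change was -2.06 (edgeR adjusted p = 0.00109). The calls of these 3 genes were lost without replicate 1 of the deletion on water (edgeR adjusted p = 0.0761 for *col-60*, 0.0635 for *col-120* and 0.076 for *col-88*) and without replicate 2 of it (0.0626, 0.0533 and 0.0507). Those of *col-60* and *col-120* were also lost without replicate 1 of the deletion on azide (edgeR adjusted p = 0.0548 for each). *col-138*, the member with the second highest FPKM, was at 4746, 3762 and 3415 CPM on water and at 756, 1678 and 66.4 CPM on azide. The groups did not overlap, but the log2 fold change of -2.25 ± 0.80 was not past the threshold (edgeR adjusted p = 0.0702). Without replicate 3 it was -1.73 ± 0.27 and past it (edgeR adjusted p = 0.00105).

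The largest rises in the deletion were *dpy-17* (3.65), *col-98* (3.16), *col-42* (3.16), *col-41* (3.16) and *col-103* (2.95). *col-42* went from 49.9, 119 and 148 CPM on water to 737, 794 and 1301 CPM on azide, an 8.92-fold rise without overlap (log2 fold change 3.16 ± 0.38, edgeR adjusted p = 0.000371). *col-98* and *col-103* had the same form, at 610 to 1134 and 626 to 1031 CPM on azide. *col-41* is different, since 1 library carries its value: at 16.5, 49.0 and 66.7 CPM on water and 101, 80.8 and 995 CPM on azide, its log2 fold change of 3.16 (edgeR adjusted p = 0.041) was 1.02 without replicate 3 of the deletion on azide (edgeR adjusted p = 0.157).

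The 2 azide comparisons have no library in common, so their calls can be crossed. In both genotypes 39 members fell (28.7%, against 9.55% of all genes) and 9 rose (6.62%, against 9.74%). Another 9 rose in wild type and fell in the deletion (6.62%, against 0.213%), and 2 fell in wild type and rose in the deletion (1.47%, against 0.459%). In neither genotype were 24 called. When replicate 3 of the deletion on azide was left out, 57 fell in both (41.9%, against 12% of all genes), 9 rose in both (6.62%, against 12.6%), 10 rose in wild type and fell in the deletion (7.35%, against 0.347%) and 5 did the opposite (3.68%, against 0.661%). A further 17 rose and 26 fell in wild type only by the threshold, and 5 rose and 5 fell in the deletion only by the threshold, which does not show that the genotypes differ for those genes. Over the 136 genes, 91 had the same sign in both genotypes and 45 opposite signs, with a Pearson r of 0.42 and a Spearman rho of 0.46. These values are descriptions across genes that share their libraries, and they were not computed over all genes tested.

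**Figure D3:**
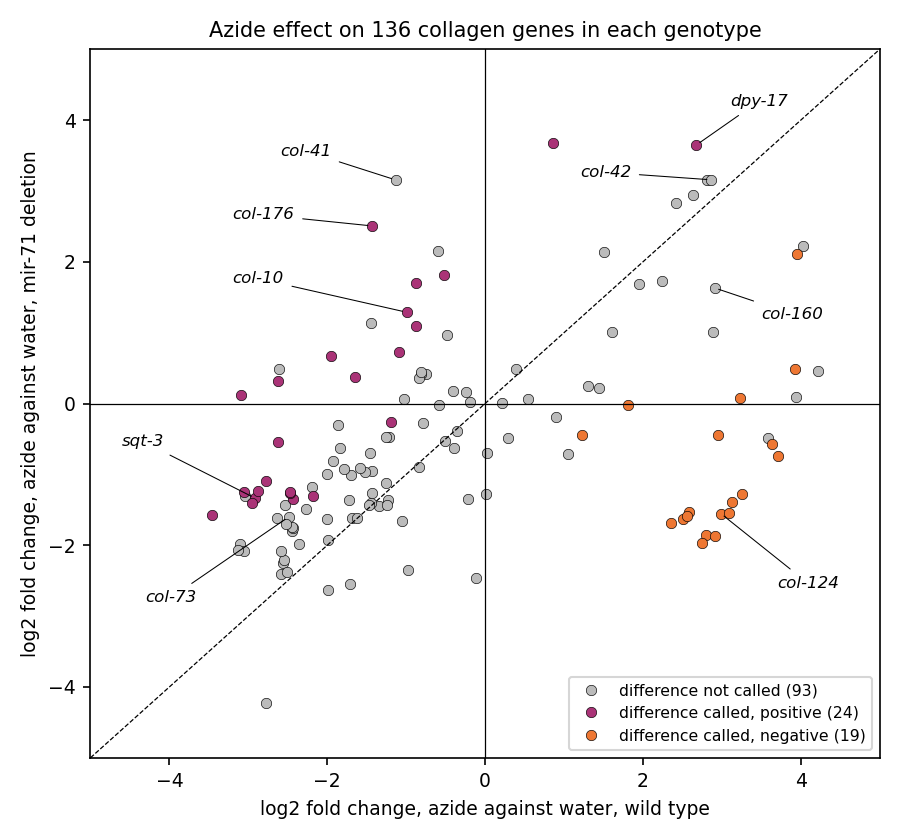
Log2 fold change of azide against water in wild type (horizontal) and in the *mir-71* deletion (vertical), each point 1 of the 136 genes. Colour gives the test of the difference between the 2 effects: 24 genes positive, 19 negative and 93 not called; the dashed line marks equal effects, and the negative genes lie to the lower right.

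The test of the difference itself, the interaction of genotype and azide, called 43 members, 31.6% against 10.5% of all genes. The difference was positive for 24 (17.6%, against 6.67%) and negative for 19 (14%, against 3.8%). Without replicate 3 of the deletion on azide it was positive for 34 members, against 10.5% of all genes, and negative for 26, against 6.24%. With counts centred on muscle genes in place of TMM it was positive for 33, against 12% of all genes, and negative for 17, against 0.498%. The median was 0.37 over the members and 0.06 over all genes.

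Genes with a negative difference all rose in wild type, and 9 of the 19 fell in the deletion: *col-81*, *col-106*, *col-122*, *col-124*, *col-129*, *col-139*, *col-140*, *col-181* and *col-184*. *col-124*, the most abundant of the 9 by FPKM, was at 711, 434 and 620 CPM in wild type on water and at 4852, 4872 and 4255 CPM on azide. In the deletion it was at 547, 441 and 362 CPM on water and at 281, 71.6 and 108 CPM on azide. Azide libraries thus lay above water libraries in 1 genotype and below them in the other, with no overlap in either. The log2 fold change was 2.99 ± 0.45 in wild type (edgeR adjusted p = 0.000343) and -1.55 ± 0.43 in the deletion (edgeR adjusted p = 0.0273), and the difference was -4.54 ± 0.62 (edgeR adjusted p = 0.00202). When replicate 3 on azide was left out, the fall of *col-124* in the deletion was not called (-1.37, edgeR adjusted p = 0.0744), its difference was -4.39 (edgeR adjusted p = 0.00506), and the other 8 genes still fell. The 5 largest negative differences were *col-81* (-4.78), *col-139* (-4.72), *col-129* (-4.64), *col-140* (-4.63) and *col-124* itself. Summed over the 9 genes, wild type on azide held 23328 to 26796 CPM, wild type on water 2677 to 4674, the deletion on water 2535 to 3956 and the deletion on azide 587 to 1724. The order of these sums follows from how the 9 genes were picked.

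*col-80* had a rise in wild type with no call in the deletion. In the deletion it was at 113, 142 and 110 CPM on water and at 210, 91.6 and 210 CPM on azide, so the groups overlapped there (log2 fold change 0.48 ± 0.25, edgeR adjusted p = 0.174), and the difference between genotypes was -3.44 ± 0.36 (edgeR adjusted p = 0.000252). *col-142* rose in both, by less in the deletion, where it went from 41.9, 59.5 and 53.4 CPM to 142, 191 and 334 CPM (difference -1.85 ± 0.37, edgeR adjusted p = 0.0116).

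Among the positive differences, *col-176* and *col-10* fell in wild type and rose in the deletion. *col-176* was at 53.9, 64.6 and 85.0 CPM in wild type on water and at 24.4, 19.6 and 31.3 CPM on azide. In the deletion it was at 9.24, 37.2 and 46.7 CPM on water and at 176, 178 and 174 CPM on azide. The 3 deletion libraries on azide were nearly equal and above all 9 others. Its difference of 3.94 ± 0.65 was the largest of the 24 called (edgeR adjusted p = 0.00581). *col-10* was at 603, 448 and 634 CPM in wild type on water, 294, 287 and 264 CPM on azide, 483, 423 and 433 CPM in the deletion on water and 590, 794 and 1888 CPM on azide. Its difference was 2.28 ± 0.49 (edgeR adjusted p = 0.0184), and its rise in the deletion, 1.29 on the log2 scale, was 0.61 without replicate 3 (edgeR adjusted p = 0.00529). Without any 1 of the 3 deletion libraries on water that rise was not called (edgeR adjusted p = 0.0645, 0.086 and 0.0649). Its fall in wild type had an edgeR adjusted p of 0.033 and was lost when any of 5 wild type libraries was left out, replicates 1 and 3 on water or any on azide (edgeR adjusted p = 0.0694 to 0.0873). The opposite directions of *col-10* therefore rest on calls near the threshold.

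The other large positive differences were *col-47* (3.22), *col-128* (2.93), *col-46* (2.62) and *col-169* (2.59). *col-128* went from 21.9, 25.8 and 21.0 CPM to 2.41, 4.75 and 4.02 CPM on azide in wild type, whereas in the deletion it was at 7.99, 20.6 and 23.7 CPM on water and at 24.0, 22.9 and 18.2 CPM on azide. In the deletion its groups overlapped. *col-46* and *col-47* lie next to each other on chromosome I, 433 bases apart in the deposited coordinates. In the Ensembl annotation they overlap on opposite strands, and whether they share reads was not tested. The call of *col-47* was lost without replicate 2 of the wild type on water (edgeR adjusted p = 0.0502). *col-99*, known as a transmembrane collagen rather than a cuticle component, also had a positive difference of 0.93 ± 0.21 (edgeR adjusted p = 0.0134).

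Of 4 neighbours on chromosome X, *col-167*, *col-168*, *col-169* and *col-170*, the last 3 had a positive difference. *col-167* had a difference of 1.46 ± 0.46 that was not called (edgeR adjusted p = 0.0676), and with replicate 3 on azide left out it was 0.82 and called (edgeR adjusted p = 0.0139). *col-169* was at 161, 145 and 199 CPM in wild type on water, 88.6, 88.4 and 97.1 CPM on azide, 108, 103 and 156 CPM in the deletion on water and 223, 306 and 666 CPM on azide. All deletion libraries on azide lay above all others, replicate 3 the furthest. The differences were 1.81 ± 0.48 for *col-168* (edgeR adjusted p = 0.0392), 2.59 ± 0.49 for *col-169* (edgeR adjusted p = 0.0106) and 2.02 ± 0.38 for *col-170* (edgeR adjusted p = 0.009). Without replicate 3 they were 1.22, 1.94 and 1.55, all called. *col-166*, also on X, and *col-144* on V had positive differences too: in the deletion on azide *col-166* was at 568, 874 and 2117 CPM and *col-144* at 717, 984 and 2232 CPM, against 321 to 323 and 385 to 454 CPM in wild type on azide. For both genes the groups did not overlap there. The log2 fold change between genotypes on azide was 1.88 for *col-166* and 1.64 for *col-144*, and 1.13 and 0.99 without replicate 3, still called.

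**Figure D4:**
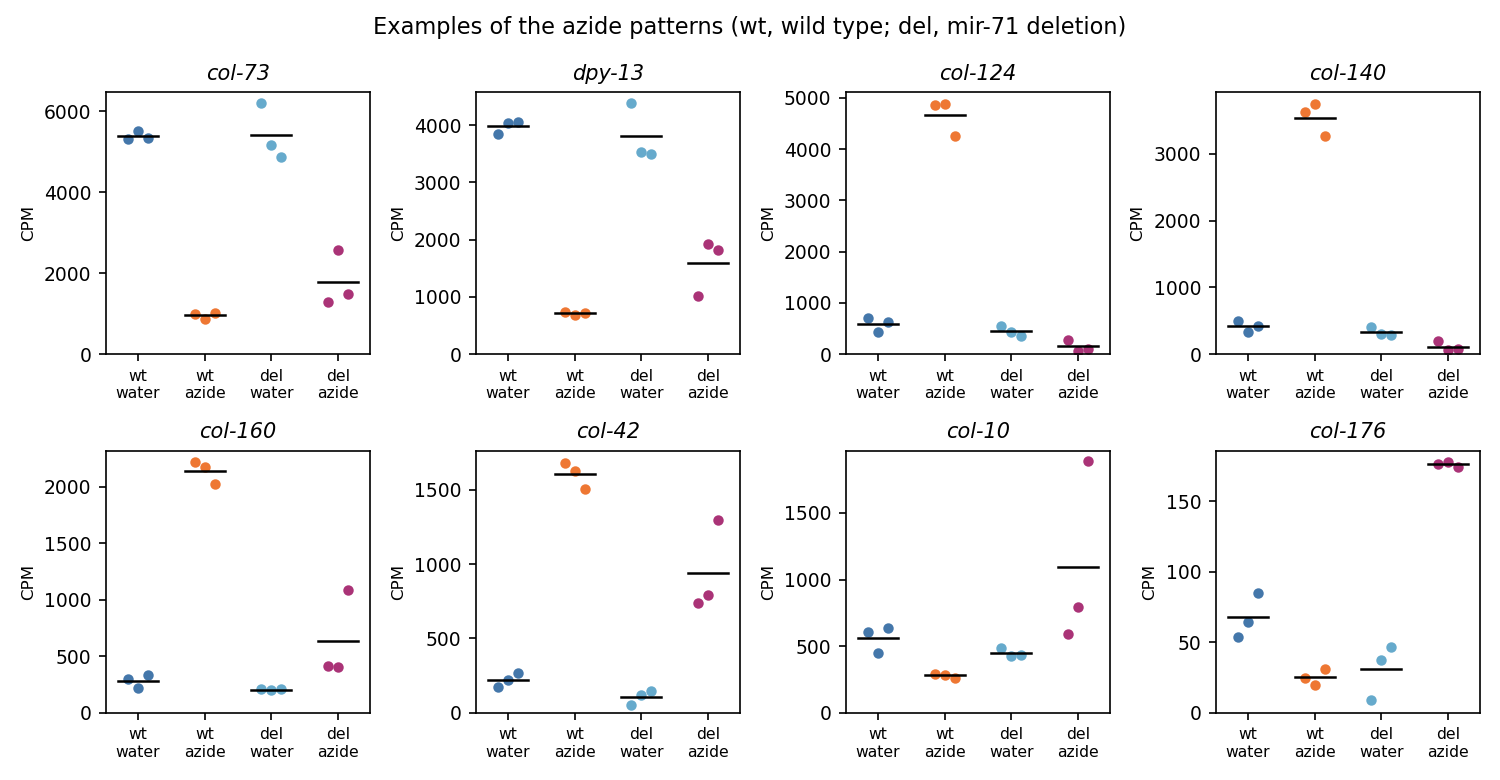
CPM of 8 members in each library (points) with the mean of 3 libraries (line), for wild type (wt) and *mir-71* deletion (del) on water and azide; each vertical axis starts at 0 and has its own range. Shown are the 2 members highest by mean FPKM of each pattern called in both genotypes: *col-73* and *dpy-13* fall in both, *col-124* and *col-140* rise in wild type and fall in the deletion, *col-160* and *col-42* rise in both, and *col-10* and *col-176* fall in wild type and rise in the deletion.

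On azide the genotypes differed in 75 members: 39 were higher in the deletion (28.7%, against 20.1% of all genes) and 36 were lower (26.5%, against 18.7%), together 55.1% against 38.8%. Without replicate 3 of the deletion on azide, 48 were higher, against 20.4% of all genes, and 43 lower, against 19.1%. The median log2 fold change was 0.06 over the members and 0.04 over all genes. This comparison shares the wild type libraries on azide with the azide comparison of that genotype, and its deletion libraries with the other azide comparison. The shared wild type libraries enter with opposite sign, so calls in opposite directions tend to go together in any set of genes. The values therefore stand side by side only. Of the 39 higher members 29 were called as falling on azide in wild type, and of the 36 lower members 27 were called as rising there. The same counts over all genes were not computed.

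The 5 largest falls in this comparison were *col-95* (-5.11), *col-140* (-4.96), *col-139* (-4.94), *col-124* (-4.92) and *col-81* (-4.92), each more than 30-fold by the fitted value. *col-140* was at 3625, 3741 and 3264 CPM in wild type and at 199, 59.9 and 83.8 CPM in the deletion, 31.1-fold lower with no overlap (edgeR adjusted p = 3.83e-05). The largest rises were *col-41* (4.43), *col-47* (2.94), *col-54* (2.82), *col-176* (2.81) and *col-90* (2.65). Without replicate 3 of the deletion on azide, *col-41* was at 2.29, *col-54* at 1.28 and *col-90* at 1.35 on the log2 scale, all still past the threshold. *col-176* was at 24.4, 19.6 and 31.3 CPM in wild type and at 176, 178 and 174 CPM in the deletion, 7.01-fold higher (log2 fold change 2.81 ± 0.48, edgeR adjusted p = 0.00177).

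Of the 11 body-shape genes, 9 moved alike. *sqt-1*, *sqt-2*, *sqt-3*, *rol-6*, *rol-8*, *lon-3*, *dpy-4*, *dpy-5* and *dpy-13* fell on azide in wild type, by -2.43 to -3.46 on the log2 scale, fell on azide in the deletion by -1.09 to -1.57, and were higher in the deletion than in wild type on azide, by 0.96 to 1.84. The difference of the azide effect was positive for all 9, from 1.09 to 1.89. With replicate 3 on azide left out, the 9 fell in the deletion by -1.13 to -1.45 and were higher than in wild type on azide by 0.84 to 2.12, and the difference was called for 8 of them, all but *dpy-5*. None of the 11 was called on water.

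*sqt-1* (chromosome II, 11336728 to 11337749, WBcel235), a collagen whose mutants can be squat or rolling, was at 1482, 1583 and 1415 CPM in wild type on water, 190, 193 and 197 CPM on azide, 1351, 1459 and 1220 CPM in the deletion on water and 397, 678 and 451 CPM on azide. Wild type on azide was lowest, the deletion on azide intermediate, and the water libraries highest, overlapping between genotypes. The fall was 7.73-fold in wild type and 2.64-fold in the deletion, a difference of 1.55 ± 0.22 on the log2 scale (edgeR adjusted p = 0.000942). *rol-6* (chromosome II, 8733050 to 8734197), whose dominant roller allele is a common transformation marker, was at 735, 768 and 709 CPM in wild type on water and 102, 108 and 113 CPM on azide, and in the deletion at 693, 779 and 655 CPM on water and 266, 393 and 340 CPM on azide. It had the smallest adjusted p of the interaction among the 11 (difference 1.69 ± 0.18, edgeR adjusted p = 0.000158). *sqt-2* (chromosome II, 23347 to 24347) and *rol-8* (chromosome II, 7544134 to 7545259) had differences of 1.64 ± 0.22 and 1.80 ± 0.25.

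*sqt-3* (chromosome V, 12353021 to 12354080) was in the deletion at 2957, 2801 and 2746 CPM on water and 856, 1557 and 958 CPM on azide, with a difference between genotypes of 1.58 ± 0.25 (edgeR adjusted p = 0.00178). *lon-3* (chromosome V, 12197510 to 12198568), a collagen whose loss lengthens the body, fell most of the 11 in wild type, from 932, 1147 and 987 CPM to 95.6, 88.9 and 93.4 CPM, 11.0-fold. In the deletion it went from 952, 1121 and 892 CPM to 334, 491 and 172 CPM, and the difference was 1.89 ± 0.40 (edgeR adjusted p = 0.0149). No azide library of *lon-3* overlapped a water library in either genotype.

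The dumpy genes *dpy-13* (chromosome IV, 4235631 to 4236647), *dpy-4* (chromosome IV, 14985645 to 14986752) and *dpy-5* (chromosome I, 5432197 to 5433051) are the body-shape genes with the highest FPKM. *dpy-13* was at 3839, 4033 and 4051 CPM in wild type on water and 739, 688 and 724 CPM on azide, and in the deletion at 4391, 3525 and 3502 CPM on water and 1022, 1928 and 1812 CPM on azide. Deletion libraries on azide lay above all wild type libraries on azide and below all water libraries. The differences between genotypes were 1.21 ± 0.26 for *dpy-13*, 1.21 ± 0.27 for *dpy-4* and 1.09 ± 0.31 for *dpy-5*, and that of *dpy-5* was near the threshold (edgeR adjusted p = 0.042). It lost the call without any 1 of 11 of the 12 libraries, all but replicate 1 of the deletion on azide (edgeR adjusted p = 0.0608 to 0.0941). Replicate 1 of the deletion on azide was lowest for all 3.

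*dpy-17* and *dpy-14* did not follow the other 9. *dpy-17* (chromosome III, 5107333 to 5108443), whose product is known to work with that of *sqt-3*, was at 2.43, 3.37 and 2.89 CPM in wild type on water and 16.3, 19.1 and 20.4 CPM on azide, and in the deletion at 2.14, 2.03 and 3.45 CPM on water and 32.9, 33.4 and 28.6 CPM on azide. It rose 6.4-fold in wild type and 12.5-fold in the deletion, opposite to *sqt-3*, and all deletion libraries on azide lay above all wild type libraries on azide. The difference of 0.97 ± 0.28 was near the threshold (edgeR adjusted p = 0.0429) and lost the call without any 1 of 10 libraries, all but replicate 3 of the deletion on water and on azide (edgeR adjusted p = 0.0527 to 0.107). *dpy-14* (chromosome I, 6843623 to 6845092) was low throughout, at 1.13, 1.88 and 3.80 CPM in wild type on azide and 0.349, 0.132 and 0.205 CPM in the deletion on azide. It was lower in the deletion there (log2 fold change -3.30 ± 0.68, edgeR adjusted p = 0.00237) and was called in no other comparison.

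**Figure D5:**
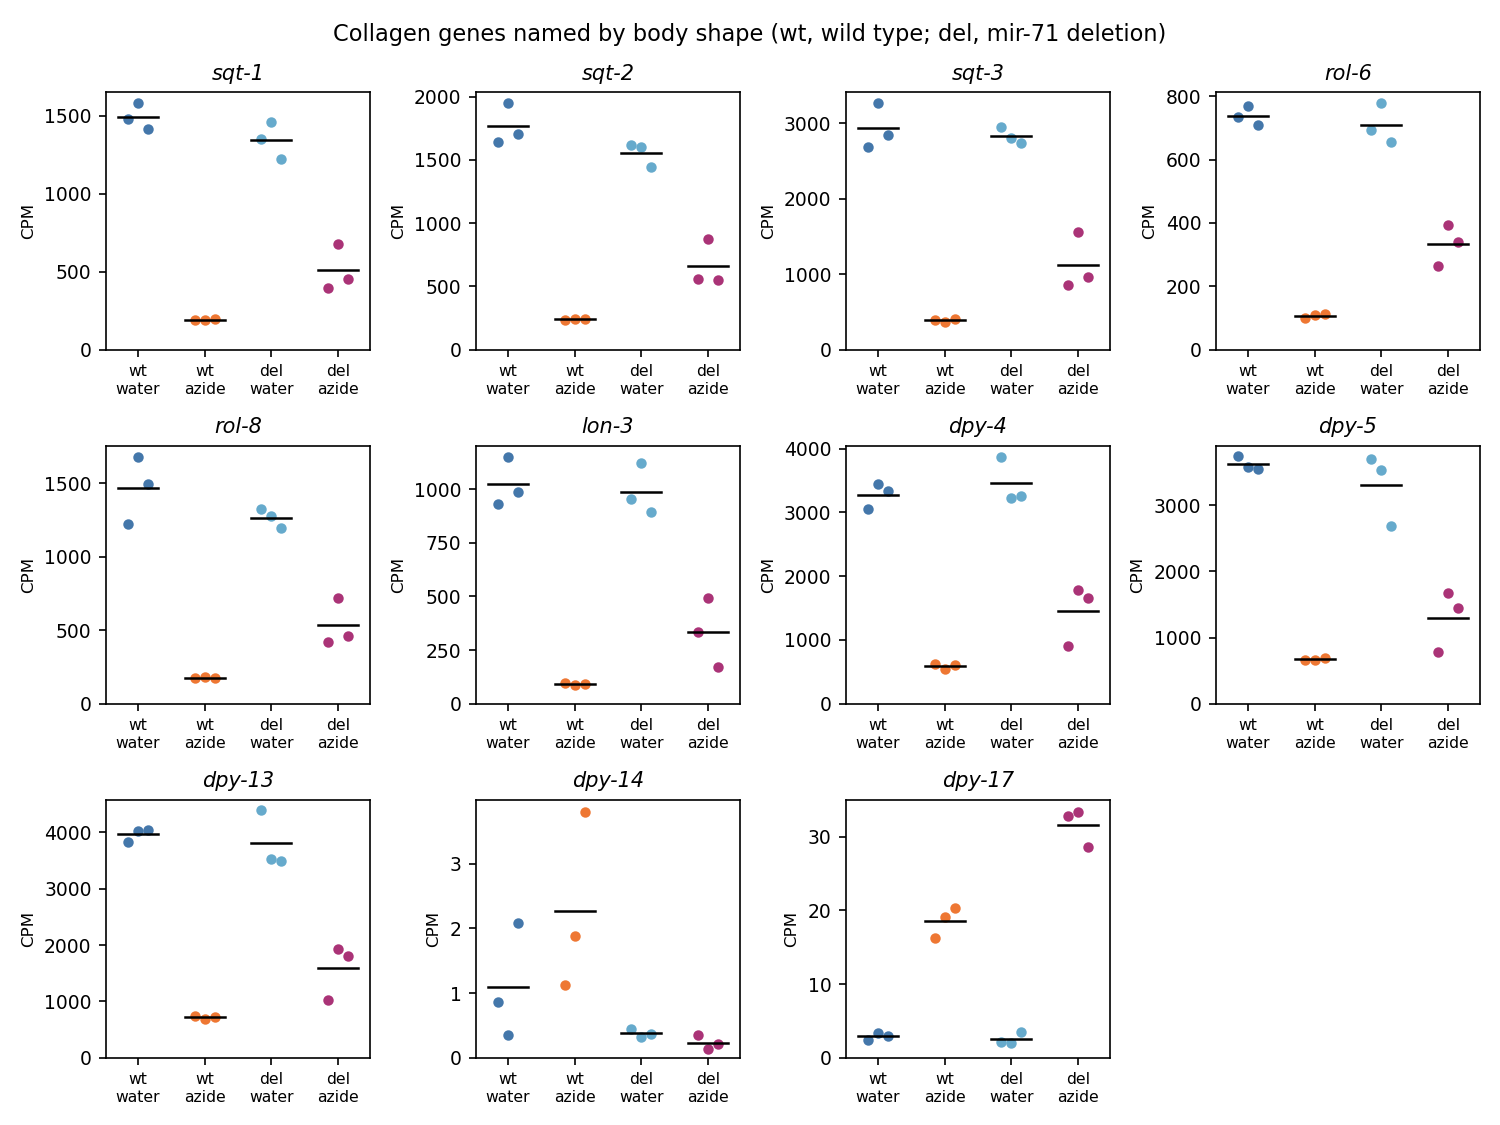
CPM of the 11 collagen genes named for body shape in each library (points) with the mean of 3 libraries (line), for wild type (wt) and *mir-71* deletion (del) on water and azide; each vertical axis starts at 0 and has its own range. 9 genes are lowest in wild type on azide and intermediate in the deletion on azide, *dpy-17* is highest in the deletion on azide, and *dpy-14* is at most at 3.80 CPM.

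The collagen genes among the first to be cloned differed in their azide effects. *col-14* fell in both genotypes, from 1982, 1662 and 1815 CPM to 336, 330 and 337 CPM in wild type and from 2227, 2109 and 1530 CPM to 493, 828 and 424 CPM in the deletion. *col-17* fell in wild type from 1129, 1349 and 1233 CPM to 213, 179 and 212 CPM, and in the deletion went from 1333, 1249 and 1151 CPM to 541, 741 and 1289 CPM. In the deletion the groups of *col-17* overlapped. With replicate 3 on azide left out it was called as falling there (-0.98, edgeR adjusted p = 0.000189). Its difference between genotypes was 2.08 ± 0.34 (edgeR adjusted p = 0.00342). *col-12* and *col-13*, tandem duplicates on chromosome V, were not called in wild type (edgeR adjusted p = 0.547 and 0.573), and *col-12* fell in the deletion from 321, 282 and 200 CPM to 80.9, 88.4 and 147 CPM (edgeR adjusted p = 0.00837). *col-13* was not called in the deletion (edgeR adjusted p = 0.408), but was without replicate 3 (-1.11, edgeR adjusted p = 0.0248). The sources used here do not say how reads were split between near-identical copies, so the values of these 2 genes are uncertain.

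By chromosome, 38 members lie on IV, 30 on V, 20 on X, 19 on II, 16 on I and 13 on III. On chromosome III, 8 of 13 rose and 2 fell on azide in wild type, while on chromosome I 0 of 16 rose and 11 fell. These are counts with no test, and shares of all genes by chromosome were not computed. Over all chromosomes 27.5% of all genes rose and 27.1% fell. Of 22 pairs of members with no other gene of the table between them, holding 38 members, 18 had the same sign of the azide effect in wild type and 10 were both called in the same direction. In 3 pairs the neighbours were called in opposite directions. The same counts over all neighbouring genes were not computed. Only 45 of the 136 members had a log2 fold change above 0 there, so many pairs would share a sign in any order of the genes. Shared regulation of neighbours was not tested. *col-17*, *col-20* and *col-73* lie in a row on chromosome II, and on azide in wild type *col-17* fell (-2.62), *col-20* rose (3.25) and *col-73* fell (-2.49). *col-79* fell (-3.13) while *col-39*, which starts 397 bases further on, rose (1.95). In an Ensembl annotation of the same build 135 members were found, of which 46 overlap a protein-coding gene and 41 overlap one on the opposite strand. Whether reads were counted by strand was not given, so reads of such pairs may be shared where the counted gene models overlap too.

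Genes of the machinery that makes collagen fell on azide in wild type or were not called. Of 17 measured genes of collagen modification, folding, secretion, cutting and cross-linking, 13 fell and 0 rose on azide in wild type (median -0.72), 7 fell and 0 rose in the deletion (median -0.33), and 11 were higher and 0 lower in the deletion than in wild type on azide (median 0.49). The difference was positive for 7 and negative for 0. With replicate 3 on azide left out, 11 fell and 0 rose in the deletion, 10 were higher and 2 lower than in wild type on azide, and the difference was positive for 7 and negative for 1. The largest falls in wild type were those of the astacin protease gene *nas-6* (-2.64), *dpy-18* (-2.03) and the thioredoxin-like gene *dpy-11* (-1.99). The prolyl 4-hydroxylase gene *dpy-18* had mean levels of 408 CPM in wild type on water, 99.9 on azide, 399 in the deletion on water and 241 on azide, with a difference between genotypes of 1.30 ± 0.20 (edgeR adjusted p = 0.0013). *pdi-2*, whose product is the partner subunit of that enzyme, had means of 4125, 1484, 3761 and 2863 CPM in the same order (difference 1.08 ± 0.21, edgeR adjusted p = 0.0068). *dpy-31*, the protease known to cut the SQT-3 chain, fell in wild type (-0.80 ± 0.10) and was not called in the deletion (-0.21 ± 0.10, edgeR adjusted p = 0.14). The peroxidase gene *mlt-7* and the secretion gene *trpp-8* were called in none of these comparisons, but without replicate 3 *mlt-7* fell in the deletion (-0.69, edgeR adjusted p = 0.0031).

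Of 12 regulators of molting and collagen transcription, 8 fell and 2 rose on azide in wild type, 4 fell and 3 rose in the deletion, and the difference was positive for 7 and negative for 1. The counts in the deletion and for the difference were equal without replicate 3. *blmp-1*, a transcription factor of the epidermis, fell by 1.74 on the log2 scale in wild type and by 0.57 in the deletion (difference 1.17 ± 0.16, edgeR adjusted p = 0.00066). The period-like gene *lin-42* had means of 386 CPM in wild type on water, 88.5 on azide, 358 in the deletion on water and 246 on azide (difference 1.58 ± 0.25, edgeR adjusted p = 0.0019). *lin-41* and *lin-28*, heterochronic genes, rose in wild type (2.20 and 0.58).

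Levels of other collagens and of stage and tissue markers are given beside these results, and the lists differed in direction. The 6 furrow collagens, which form the rings of the cuticle, all fell on azide in wild type (median -2.74) and 0 of 6 were called in the deletion (median 0.21, and 0.31 without replicate 3, again with 0 called), while 9 of the 11 body-shape genes fell in both genotypes. Summed, the furrow collagens were at 163 to 207 CPM in wild type on azide and at 474 to 1611 CPM in the other 9 libraries. The adult collagens *col-7*, *col-19* and *col-62* all rose on azide in wild type and summed to 2555 to 3045 CPM, with 209 to 324 in wild type on water, 176 to 275 in the deletion on water and 35.8 to 172 in the deletion on azide. The other 2 collagens of the adult list, the blister genes *bli-1* and *bli-2*, fell on azide in wild type (-3.45 and -3.28). In the deletion on azide *bli-1* was higher than in wild type (1.94, edgeR adjusted p = 0.0423), and *bli-2* was not called (1.37, edgeR adjusted p = 0.123). Without replicate 3 both were higher (2.42 and 1.86). Of 12 molting genes 12 fell on azide in wild type, where their sum was 781 to 861 CPM against 3244 to 6237 CPM in the other groups. The 6 vitellogenins, yolk genes of the adult intestine, summed to 34570 to 44405 CPM in wild type on azide, 4216 to 6191 in wild type on water, 2226 to 2548 in the deletion on water and 238 to 2130 in the deletion on azide. All 11 oocyte genes rose on azide in both genotypes, to 3931 to 4238 CPM in wild type and 642 to 1941 CPM in the deletion. Of 12 epidermal genes 9 fell and 1 rose in wild type, and 1 fell and 2 rose in the deletion. Without replicate 3 of the deletion on azide, 4 epidermal genes fell and 1 rose in the deletion. Of 12 muscle genes 0 were called in wild type and 1 fell in the deletion, or 2 without replicate 3. No gene of these lists was at 0 in a library and none was called on water. All groups are labelled with 1 collection stage, and the part of stage or molt phase in the collagen results was not tested.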

How the data were processed

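Gene-level counts of 12 libraries were used as the authors deposited them, as whole-number counts with no normalization. The deposited FPKM values, which divide the count by a gene length and the library total, were used only for levels between genes. Per the labels and methods, the upstream tools were cutadapt 1.9.1 for trimming, HISAT2 2.0.1 for alignment to WBcel235 and HTSeq 0.6.1 for counting; whether counting used strand was not stated. The table's columns from the authors' own comparisons were not used.

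All 12 libraries were fitted in edgeR 4.0.16 (R 4.3.3) with 4 group means, TMM factors and the robust quasi-likelihood test, after edgeR's filter (10 counts, total 15), and p was adjusted over 15048 genes by Benjamini-Hochberg (threshold 0.05, two-sided). SE is the log2 fold change divided by the root of F. The fit was tested on simulated data with an equal spread in all groups. That test does not cover the larger spread of the deletion on azide. Groups and replicates came from the sample titles. The study describes biological replicates. The members and gene lists were chosen with earlier results of these data known. Named members are the 11 body-shape genes, the 5 highest by FPKM, chosen early-cloned *col-* genes, and in each comparison the 5 largest rises and falls called with a mean of at least 5 CPM; *col-20*, *col-39*, *col-43*, *col-63*, *col-99*, *col-106*, *col-122*, *col-144*, *col-160*, *col-166*, *col-167*, *col-168*, *col-170*, *col-175*, *col-181* and *col-184* were added after their values were seen. Naming near-identical protein pairs was planned but not done without sequences. Alternatives were DESeq2 1.42.0, its size factors, upper-quartile factors, centring on muscle genes, no filter, fits of 2 groups, a replicate block, and leaving out each library. Of 19 listed biosynthesis genes, 17 were measured under their symbols.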

Additional observations from a re-analysis of the deposited data

Results flagged for a closer look

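By edgeR's test of the interaction, the azide effect differed between the genotypes for 24 members in the positive direction (17.6%, against 6.67% of all genes). It differed for 19 in the negative (14%, against 3.8%). Among the named members the positive differences on the log2 scale were 3.94 for *col-176*, 3.22 for *col-47*, 2.93 for *col-128*, 2.62 for *col-46*, 2.59 for *col-169*, 2.28 for *col-10* and 2.08 for *col-17*. Of the body-shape genes the difference was 1.89 for *lon-3*, 1.80 for *rol-8*, 1.69 for *rol-6*, 1.64 for *sqt-2*, 1.58 for *sqt-3*, 1.55 for *sqt-1*, 1.21 for *dpy-4*, 1.21 for *dpy-13*, 1.09 for *dpy-5* and 0.97 for *dpy-17*. When each of the 12 libraries was left out in turn, *dpy-5* lost the call 11 times, *dpy-17* 10 times and *col-47* 1 time. The negative differences were -4.78 for *col-81*, -4.72 for *col-139*, -4.64 for *col-129*, -4.63 for *col-140* and -4.54 for *col-124*.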

How the results depend on the processing

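Of 99 called results of named members, 86 stayed past the threshold under every alternative that gave an adjusted p, and 0 changed sign in 1857 repeats, of which 85 lost the call. The calls lost most often were those of *col-41* on azide in the deletion, of *dpy-5* and *dpy-17* in the interaction, and of *col-132* on water; the cause was not tested. On water the count of lower members, 3, was 5 with fits of 2 groups and 10 with DESeq2, and without single libraries it lay between 0 and 5. In the other comparisons every count of members stayed within 1.5 times the main one. Without single libraries these counts ranged from 37 to 48 higher and 31 to 43 lower for genotype on azide, where 14.8 to 20.4% and 12.9 to 20.8% of all genes were called. They ranged from 35 to 37 and 54 to 76 for azide in wild type (24 to 30.3% and 22.4 to 29.2% of all genes), from 13 to 23 and 40 to 72 for azide in the deletion (6.85 to 15.7% and 7.36 to 14.8%), and from 17 to 34 and 14 to 26 for the interaction (4.11 to 10.5% and 1.21 to 10.6%). On water the shares of all genes were 0.242 to 2.44% higher and 0.177 to 2.37% lower. With fits of 2 groups, 35 members rose and 76 fell on azide in wild type (32.1% and 31.9% of all genes). In the deletion 11 rose and 41 fell on azide (5.35% and 6.22%). Genotype on azide gave 34 higher and 39 lower (16.6% and 14.8%). Centring on muscle genes shifted the median of all genes by -0.20, 0.23, -0.26, 0.21 and 0.44 from 0 in the 5 comparisons, and upper-quartile factors by up to 0.20 in size; no called member changed sign.

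Same-numbered libraries of different groups did not deviate together over the genes tested, with correlations from -0.182 to 0.223 in 18 pairs, 1 of them above 0.1, so the numbers were not treated as pairs. With a replicate block, 0 members were higher and 4 lower on water (0.498% and 0.525% of all genes), 39 and 39 for genotype on azide (18.5% and 17.2%), 35 and 66 for azide in wild type (26.6% and 26%), 14 and 55 for azide in the deletion (10% and 10%), and 23 and 17 for the interaction (5.75% and 2.39%). In the deletion on azide, the fall of *col-138* by several fold was not past the threshold with 3 libraries, and was past it without replicate 3. That library was picked out by the values of members such as *col-138*, so the call without it is not an independent test.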
